A study of Mus musculus with 8 samples.

Results

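Transcripts of 9 DNA replication and proliferation genes, Mcm2, Mcm3, Mcm4, Mcm5, Mcm6, Mcm7, Pcna, Top2a and Mki67, were followed across 4 groups of mouse testis. The genes were chosen by symbol, and all 9 were found among the 54087 genes of the count tables and passed the filter on low counts, together with 23353 genes in all. RNA was sequenced from whole testes of C57BL/6 males. The groups, of 2 libraries each, were Dnmt3A KO/KO testes at 25 days post partum (dpp), Dnmt3A WT/WT testes at 25 dpp, Dnmt3A KO/KO testes at 19 dpp and Dnmt3A WT/WT testes at 19 dpp. They are called KO and WT below. The Dnmt3a protein methylates DNA de novo in the male germ line. The labels name no Cre or tissue restriction for the mutation and do not say which exons it removes. They do not say either whether the 2 libraries of a group came from separate animals, so p-values measure only the spread between these libraries.

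Mcm2 to Mcm7 encode the 6 subunits of the ring-shaped helicase that is loaded on DNA in G1 and unwinds it in S phase, each subunit being present once in a ring. Pcna encodes the sliding clamp that holds DNA polymerases on the template and also serves in DNA repair. Top2a encodes the topoisomerase that untangles sister chromatids, and Mki67 encodes Ki-67, a protein that coats mitotic chromosomes and is widely used as a proliferation marker. In the testis, spermatogonia divide by mitosis, and preleptotene spermatocytes pass through the last S phase before meiosis. Spermatocytes beyond that stage do not replicate their genome again. Sertoli cells, the somatic supporting cells of the tubule, stop dividing in young males.

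Gene counts per library lay between 22515812 and 50445334, and the 2 libraries of each group differed by more than sampling noise. Levels are CPM, which puts all libraries on 1 common total, adjusted by the trimmed mean of M-values (TMM), with the SD over n = 2 libraries where a mean is given. Dnmt3a itself had 76.8 and 67.2 CPM in KO and 48.7 and 70.0 CPM in WT at 25 dpp, and 114 and 112 CPM in KO and 147 and 141 CPM in WT at 19 dpp. These counts cover the whole gene and so do not check the genotype labels. The makeup of the samples differed widely between groups. The 10 spermatid markers summed to 7.98 and 11.4 CPM in KO and to 3264 and 528 CPM in WT at 25 dpp, and to between 5.49 and 6.75 CPM in the 19 dpp libraries of both genotypes. Prm1, Prm2 and Tnp2, 3 of those markers, were at 0 in the KO libraries at 25 dpp and in all 19 dpp libraries, KO and WT. The 13 spermatocyte markers summed to 2471 and 3598 CPM in KO and 10250 and 8549 CPM in WT at 25 dpp, and to 430 and 780 CPM in KO and 2452 and 3722 CPM in WT at 19 dpp. Ldhc averaged 1115 CPM over the 8 libraries, the most of the 13, so the sums do not speak for each marker. By the test described below, 7 of the 13 were lower and 1 higher in KO at 25 dpp, against 37.4% and 26.1% of all genes tested. The 12 Sertoli cell markers summed to 6423 and 5381 CPM in KO and 1635 and 2151 CPM in WT at 25 dpp, and to 7547 and 6627 CPM in KO and 4248 and 3313 CPM in WT at 19 dpp. In whole testis, fewer cells of a type and less RNA per cell cannot be told apart. The part of the sample makeup in the results below was not tested.

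The subunits Mcm2 to Mcm6 had similar profiles across the libraries. Mcm2, which spans chr6:88883474-88898780 on the minus strand, had 89.0 and 73.0 CPM in KO and 33.0 and 47.0 CPM in WT at 25 dpp, and 57.4 and 97.5 CPM in KO and 100.1 and 82.5 CPM in WT at 19 dpp. Mcm3, at chr1:20802968-20820312 on the minus strand, had 99.2 and 113 CPM in KO and 55.0 and 74.2 CPM in WT at 25 dpp, and 74.1 and 105 CPM in KO and 108 and 117 CPM in WT at 19 dpp. Mcm4, at chr16:15623897-15637400 on the minus strand, had 64.9 and 67.4 CPM in KO and 28.6 and 39.7 CPM in WT at 25 dpp, and 45.8 and 67.1 CPM in KO and 74.8 and 69.6 CPM in WT at 19 dpp. For Mcm2 and Mcm4 both WT libraries at 25 dpp were the lowest of the 8. For Mcm3 the first WT library at 25 dpp was the lowest, and the second stood level with the first KO library at 19 dpp. Mcm5, at chr8:75109569-75128439 on the plus strand, had 121 and 149 CPM in KO and 61.4 and 79.9 CPM in WT at 25 dpp, and 52.2 and 88.7 CPM in KO and 124 and 128 CPM in WT at 19 dpp. Mcm6, at chr1:128331590-128359664 on the minus strand, had 112 and 126 CPM in KO and 58.4 and 76.1 CPM in WT at 25 dpp, and 80.0 and 108 CPM in KO and 122 and 113 CPM in WT at 19 dpp. For Mcm6 the WT libraries at 25 dpp were again the lowest, while for Mcm5 the first KO library at 19 dpp lay below both of them.

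Mcm7 and Pcna had another profile. Mcm7, at chr5:138164583-138172422 on the minus strand, had 97.0 and 126 CPM in KO and 303 and 273 CPM in WT at 25 dpp, and 62.6 and 92.8 CPM in KO and 122 and 159 CPM in WT at 19 dpp. Pcna, at chr2:132249162-132253314 on the minus strand, had 113 and 140.3 CPM in KO and 207 and 192 CPM in WT at 25 dpp, and 58.2 and 71.5 CPM in KO and 118 and 145 CPM in WT at 19 dpp. For both genes the WT libraries at 25 dpp were the highest of the 8 and the KO libraries at 19 dpp the lowest. Top2a, at chr11:98992943-99024189 on the minus strand, had 408 and 557 CPM in KO and 431 and 468 CPM in WT at 25 dpp, and 126 and 225 CPM in KO and 430 and 483 CPM in WT at 19 dpp. Mki67, at chr7:135689784-135716361 on the minus strand, had 237 and 293 CPM in KO and 157 and 170 CPM in WT at 25 dpp, and 95.1 and 131 CPM in KO and 217 and 240.3 CPM in WT at 19 dpp. Both of these genes were lowest in the KO libraries at 19 dpp, and for Top2a the other 3 groups overlapped. All coordinates are those of GENCODE M21 on GRCm38, the assembly also called mm10.

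**Figure D1:**
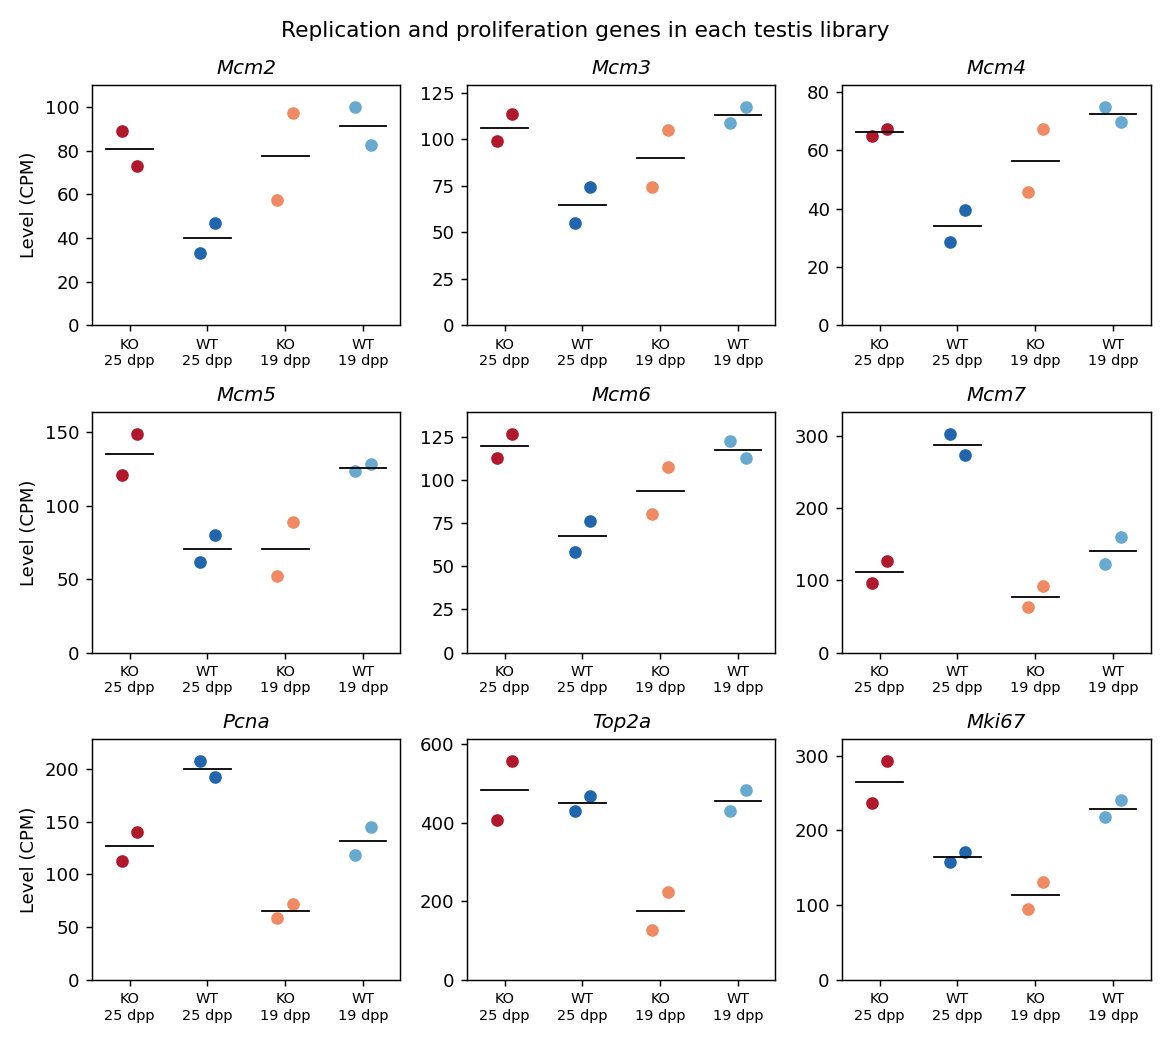
Level in CPM after TMM scaling (y axis, from 0) of each of the 9 genes in each library, with 1 point per library, 2 per group, and a line at the group mean. Mcm7 and Pcna are highest in the WT libraries at 25 dpp (303 and 273 CPM for Mcm7), where Mcm2, Mcm4 and Mcm6 are lowest (33.0 and 47.0 CPM for Mcm2).

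Per kilobase of exon, which allows genes to be compared with each other, the order of levels differed between groups. Neighbours in the order are called apart where their ranges of mean ± SD did not meet. In KO at 25 dpp, Top2a (53.5 ± 11.7 CPM per kb) and Pcna (52.7 ± 8.16) led, not apart from each other. Mcm5 (33.7 ± 4.94), Mcm3 (28.3 ± 2.65), Mki67 (26.3 ± 3.93), Mcm6 (25.6 ± 2.13) and Mcm7 (25.2 ± 4.66) came next, apart from Pcna and none apart from its neighbour among them. Mcm4 (18.4 ± 0.487) and Mcm2 (11.7 ± 1.62) came last, each apart from the gene above it. In WT at 25 dpp, Pcna (83.2 ± 4.44 CPM per kb), Mcm7 (65.1 ± 4.71) and Top2a (49.9 ± 2.94) stood apart from each other and from the rest, and the next gene was Mcm5 at 17.7 ± 3.28, not apart from Mcm3, Mki67 and Mcm6 after it. In KO at 19 dpp, Pcna (27.0 ± 3.93 CPM per kb) was followed by Mcm3 (23.9 ± 5.86) and Mcm6 (20.1 ± 4.16), and no neighbours among the 9 were apart. Top2a, at 19.4 ± 7.79 CPM per kb, lay among the helicase subunits in that group. In WT at 19 dpp, Pcna (54.9 ± 7.94 CPM per kb) and Top2a (50.6 ± 4.23) led again, followed by Mcm7 at 31.8 ± 5.91, apart from Top2a and not from Mcm5 (31.5 ± 0.846). Mcm2 was the lowest of the 6 subunits per kb in all 8 libraries, at 5.75 ± 1.42 CPM per kb in WT at 25 dpp.

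At 25 dpp, 6 of the 9 genes were higher in KO, against 26.1% of all genes tested, and 2 were lower, against 37.4%. The genes that rose in KO were 5 of the 6 helicase subunits and Mki67. Tests were edgeR quasi-likelihood tests with Benjamini-Hochberg adjustment over all 23353 genes at 0.05. Mcm2 rose by a log2 fold change of 1.02 (SE 0.286, adjusted p = 0.0163), Mcm4 by 0.95 (SE 0.223, adjusted p = 0.00693) and Mcm5 by 0.93 (SE 0.259, adjusted p = 0.0156). Mcm6 rose by 0.83 (SE 0.19, adjusted p = 0.00627) and Mcm3 by 0.72 (SE 0.209, adjusted p = 0.0179). The proliferation marker Mki67 rose by 0.69 (SE 0.182, adjusted p = 0.0115). In all 6 genes both KO libraries lay above both WT libraries. The share of all genes with groups apart in this way was not counted, so it adds no support to the calls. Mcm7, the remaining helicase subunit, had a log2 fold change of -1.37 (SE 0.232, adjusted p = 0.00183) and so fell, and Pcna fell by 0.66 (SE 0.173, adjusted p = 0.0113), with both KO libraries below both WT libraries. Top2a had overlapping groups and a log2 fold change of 0.10 (95% interval -0.54 to 0.74, adjusted p = 0.765).

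These directions are relative to the total of gene counts as adjusted by TMM. When libraries were scaled by the summed counts of the 12 Sertoli cell markers, the median of all genes moved to -1.77, against -0.12 with TMM. Mcm2 to Mcm6 and Mki67 then turned to log2 fold changes between -0.94 for Mki67 and -0.62 for Mcm2, while Mcm7 and Pcna remained lower in KO. With this scaling 6 members were called lower and 0 higher. Mcm3, Mcm6 and Mki67, called higher with TMM, were among those 6 (adjusted p = 0.0304, 0.0325 and 0.035). Of the 12 markers Clu weighs most in that sum, with a mean of 3284 CPM over the 8 libraries. A change of scaling shifts all genes together. The distance of a member from the median of all genes is therefore nearly fixed in advance and is no check on these directions. Mcm2 stood 1.16 above that median with Sertoli scaling and 1.14 above it with TMM, and Mcm7 1.25 below it with both. With total counts, Pcna was no longer called (-0.19, adjusted p = 0.346). The calls also rested on single libraries. Without the first WT library at 25 dpp, which had the higher spermatid markers, Mcm2 (adjusted p = 0.079), Mcm3 (0.0552), Mcm5 (0.0613) and Pcna (0.05005) were not called. Without the first KO library at 25 dpp, Mcm2 and Pcna were not called, and without the second KO library Mcm3, Mcm5 and Mki67 were not. The calls of Mcm4, Mcm6 and Mcm7 held in each of these.

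At 19 dpp, 4 of the 9 genes fell in KO, against 13.2% of all genes tested, and none rose, against 8.8%, all 9 having values below 0 in edgeR, DESeq2 and limma-voom alike. Their log2 fold changes were -1.38 for Top2a (SE 0.279, adjusted p = 0.0158), -1.02 for Pcna (SE 0.174, adjusted p = 0.00973), -1.01 for Mki67 (SE 0.183, adjusted p = 0.0111) and -0.86 for Mcm7 (SE 0.23, adjusted p = 0.0352). For each of the 4, both KO libraries lay below both WT libraries. The other helicase subunits did not pass the test. Mcm5 had a log2 fold change of -0.84 (SE 0.259, adjusted p = 0.0571), and Mcm2, Mcm3, Mcm4 and Mcm6 had values between -0.36 and -0.24, with 95% intervals that ran from -0.90 to 0.43 for Mcm2 and from -0.76 to 0.11 for Mcm6. The KO and WT libraries overlapped for Mcm2 alone. Here too the share of all genes with groups apart was not counted. Beside this, all 13 spermatocyte markers were lower and 10 of the 12 Sertoli cell markers were higher in KO at 19 dpp.

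Mcm5 was called lower at 19 dpp under several alternatives, with adjusted p-values of 0.0457 with DESeq2 size factors, 0.0474 with total counts and 0.0454 with a filter of at least 5 CPM in 2 libraries. With Sertoli marker scaling, where the median of all genes moved to -0.89, all 9 genes were called lower. Without the first KO library at 19 dpp none of the 9 was called, and neither was any other gene, while 5256 genes had an unadjusted p under 0.05. The 4 genes then had log2 fold changes between -1.02 for Top2a and -0.60 for Mcm7. Without the second WT library at 19 dpp, Mcm7 and Top2a were not called (adjusted p = 0.168 and 0.0549).

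**Figure D2:**
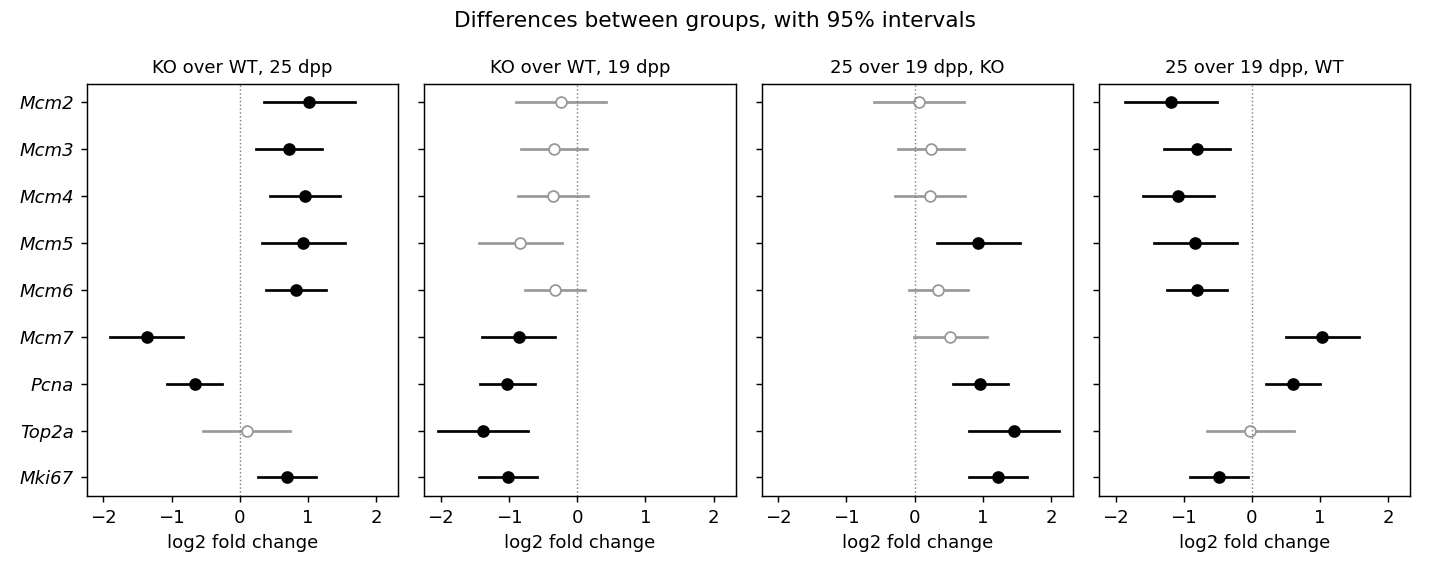
Log2 fold change (x axis) of each of the 9 genes in the 4 comparisons, with 95% intervals from the edgeR quasi-likelihood fit. Filled points passed an adjusted p of 0.05 and open points did not. In KO over WT at 25 dpp Mcm7 (-1.37) and Pcna (-0.66) lie on the other side of 0 from Mcm2 to Mcm6, a split of signs seen with TMM and lost when libraries are scaled by Sertoli markers.

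In WT testes the subunits also split between the ages. Of the 9 genes, 6 were lower at 25 than at 19 dpp, against 25.4% of all genes tested, and 2 were higher, against 34.9%. On the log2 scale Mcm2 fell by 1.19 (SE 0.286, adjusted p = 0.0097), Mcm4 by 1.08 (SE 0.223, adjusted p = 0.00488), and Mcm3, Mcm5 and Mcm6 by between 0.81 and 0.83. Mki67 fell by 0.48 at the edge of the threshold (SE 0.181, adjusted p = 0.04999), and was not called with DESeq2 size factors (adjusted p = 0.116) or without any one of 6 of the 8 libraries. Mcm7 rose by 1.03 (SE 0.23, adjusted p = 0.00674) and Pcna by 0.60 (SE 0.173, adjusted p = 0.0185). Top2a did not pass the test, at -0.02 (95% interval -0.66 to 0.62, adjusted p = 0.951). With Sertoli marker scaling, where the median of all genes moved to 1.01, Mcm2 to Mcm6 and Mki67 had values between -0.20 and 0.51, none of them called, and with total counts the rises of Mcm7 (0.51, adjusted p = 0.0613) and Pcna (0.08, adjusted p = 0.70) were not called. Without the first WT library at 25 dpp, the calls of Mcm2, Mcm5, Pcna and Mki67 were lost, and without the first WT library at 19 dpp those of Mcm5, Pcna and Mki67. Mcm5 and Mki67 were also not called without the second WT library at 19 dpp.

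In KO, 4 of the 9 genes were higher at 25 than at 19 dpp, against 10.2% of all genes tested, and none was lower, against 8.87%, all 9 values being above 0. Top2a rose by 1.46 (SE 0.279, adjusted p = 0.0155), Mki67 by 1.22 (SE 0.184, adjusted p = 0.00862), Pcna by 0.96 (SE 0.174, adjusted p = 0.0123) and Mcm5 by 0.93 (SE 0.26, adjusted p = 0.0453). Mcm2, Mcm3, Mcm4, Mcm6 and Mcm7 had values between 0.06 and 0.52 and did not pass the test, Mcm7 being called with the DESeq2 Wald test alone among the alternatives that kept all libraries (0.57, adjusted p = 0.0314). These 4 rises kept their sign with Sertoli marker scaling but none was called there, and none was called without the first KO library at 19 dpp or without the second KO library at 25 dpp. Mcm5 was also not called without the first KO library at 25 dpp. The 13 spermatocyte markers moved with this comparison, 11 of them being higher at 25 dpp in KO. Clu, which weighs most in the Sertoli marker scaling, had a log2 fold change of -0.10 in this comparison. The median of the 12 Sertoli cell markers was -0.81.

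The interaction, that is the KO effect at 25 dpp minus that at 19 dpp, was called for 6 of the 9 genes, all with a more positive KO effect at 25 dpp, against 7.68% of all genes tested. No member was called in the other direction, against 11.4%. The difference was 1.77 for Mcm5 (SE 0.367, adjusted p = 0.02), 1.71 for Mki67 (SE 0.258, adjusted p = 0.00789), 1.48 for Top2a (SE 0.389, adjusted p = 0.0392), 1.31 for Mcm4, 1.15 for Mcm6 and 1.05 for Mcm3. It was 1.25 for Mcm2 (adjusted p = 0.0669), 0.36 for Pcna (adjusted p = 0.327) and -0.51 for Mcm7 (adjusted p = 0.299), which did not pass. Mcm2 was called with total counts (adjusted p = 0.0193), the DESeq2 Wald test (0.0101) and limma-voom (0.0452), and Pcna with total counts (0.0239). Mcm3 was not called with DESeq2 size factors (0.96, adjusted p = 0.05003). With Sertoli marker scaling none of the 9 was called. Leaving out any one of 5 of the libraries left 1 to 2 calls, and Mki67 was called in each of those fits.

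Within a library, the ratio of 2 genes does not depend on how libraries are scaled. The level of Mcm7 per kb over the mean of Mcm2 to Mcm6 was 0.982 and 1.15 in KO and 6.19 and 4.18 in WT at 25 dpp, and 0.996 and 0.989 in KO and 1.14 and 1.52 in WT at 19 dpp. Mcm7 was thus near the level of the other subunits in 6 libraries and stood several times above it in the 2 WT libraries at 25 dpp. Pcna per kb stood at 2.10 and 2.36 times the mean of Mcm2 to Mcm6 in KO and at 7.81 and 5.42 times in WT at 25 dpp, and at 1.71 and 1.41 times in KO and 2.03 and 2.55 times in WT at 19 dpp. For Top2a this ratio was 2.02 and 2.50 in KO and 4.32 and 3.52 in WT at 25 dpp, and 0.981 and 1.18 in KO and 1.96 and 2.26 in WT at 19 dpp. Mki67 had ratios of 1.05 and 1.17 in KO and 1.42 and 1.15 in WT at 25 dpp, and of 0.666 and 0.616 in KO and 0.890 and 1.01 in WT at 19 dpp. The Pcna and Top2a ratios were highest in WT at 25 dpp, and the Pcna, Top2a and Mki67 ratios were lowest in KO at 19 dpp. The ratios were chosen after the values were seen and are given without a test. The WT library at 25 dpp with the higher Mcm7 ratio, 6.19, also had the higher sum of spermatid markers, 3264 CPM. With 2 libraries the order can only be the same or the opposite, and a link between these values was not tested.

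**Figure D3:**
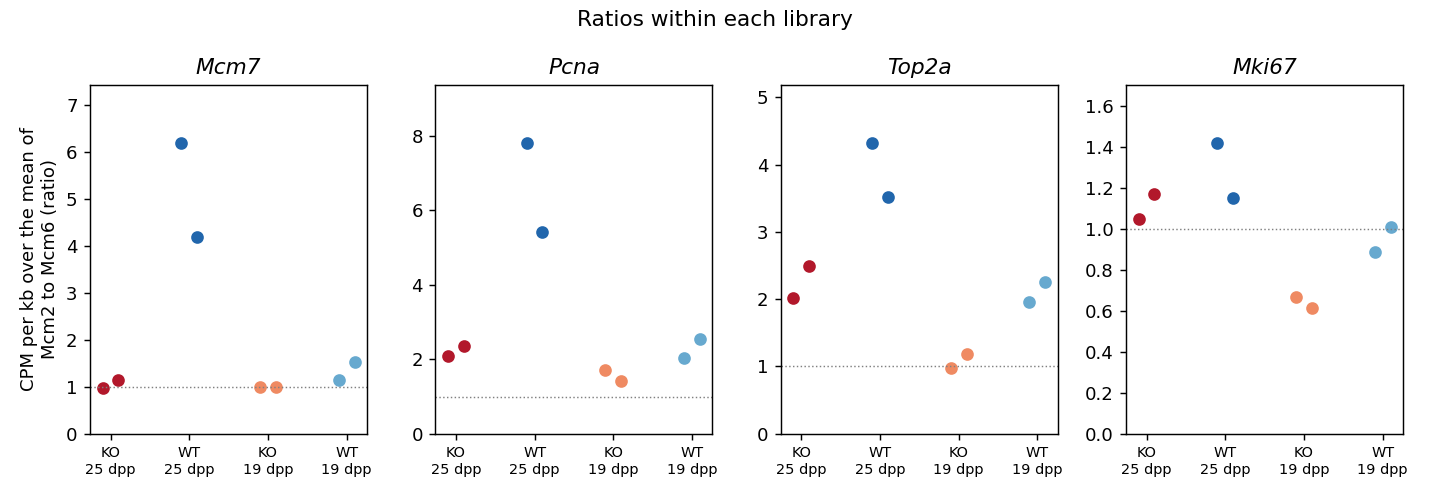
Level per kb of exon of Mcm7, Pcna, Top2a and Mki67 divided by the mean of Mcm2 to Mcm6 in the same library (y axis, a ratio without unit), with 1 point per library. The dotted line marks a ratio of 1. The Mcm7 ratio lies between 0.982 and 1.52 in 6 libraries and at 6.19 and 4.18 in the WT libraries at 25 dpp.

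Neighbouring and related loci bear on how the Mcm7 and Pcna counts can be read. Mcm7 overlaps Cops6 and Ap4m1 on the opposite strand, by 64 and 321 of its 4426 exon bases, and holds Mir25, Mir93 and Mir106b on its own strand. The strand setting of the counting is not given in the sources used here, so reads in those bases cannot be assigned with certainty. Cops6, a subunit of the COP9 signalosome, had 59.8 and 69.4 CPM in KO and 133 and 124 CPM in WT at 25 dpp and was lower in KO (log2 fold change -0.99, SE 0.138, adjusted p = 8.57e-04). Ap4m1, a subunit of an adaptor complex for vesicle traffic, had 49.8 and 44.4 CPM in KO and 67.5 and 61.3 CPM in WT at 25 dpp, and did not pass the test (-0.45, adjusted p = 0.0534). It was called lower with DESeq2 size factors (adjusted p = 0.0254), a filter of at least 5 CPM in 2 libraries (0.036), the DESeq2 Wald test (0.00329), limma-voom (0.0455) and Sertoli marker scaling (9.56e-04), whereas with total counts it had 0.022 (0.921). Both neighbours were thus well below the 303 and 273 CPM of Mcm7 in WT at 25 dpp. Pcna has a processed pseudogene, Pcna-ps2 on chromosome 19, whose reads could be split from those of Pcna or added to them. It had 7.03 and 10.5 CPM in KO and 11.1 and 12.0 CPM in WT at 25 dpp, and 3.60 and 5.48 CPM in KO and 8.57 and 9.85 CPM in WT at 19 dpp, well below Pcna in each library. It was lower in KO at 19 dpp (-1.02, SE 0.302, adjusted p = 0.0484), as Pcna was, and did not pass at 25 dpp (-0.40, adjusted p = 0.264).

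The sequences around the starts of these genes show which of them carry letters typical of cell cycle promoters. RefSeq windows from 250 bases before to 50 after the start (GRCm38.p6) were at hand for 8 of the 9 members. Motifs were searched as exact letters on both strands. The letters TTTCCCGC, TTTGGCGC, TTTCGCGC or TTTGCCGC, typical of sites of the E2F factors that switch on S phase genes, were found in the windows of Mcm3, Mcm5, Mcm6 and Mcm7, which is 4 of 8 members, against 2.26% of all 32851 windows. CCAAT, the letters of NF-Y sites, was found in 8 of 8, against 37.4%. TTTGAA, the letters of the CHR element of genes expressed in G2 and mitosis, was found in 3 of 8, Mcm2, Top2a and Mki67, against 17.9%. Mcm6 and Mcm7 are printed because these 2 subunits parted at 25 dpp, Pcna because it moved with Mcm7, and Top2a because it had the most CCAAT matches, 6. Each runs 5′ to 3′ on the strand of the gene, with the matches in capitals.
Mcm6, chr1:128359656-128359955, minus strand: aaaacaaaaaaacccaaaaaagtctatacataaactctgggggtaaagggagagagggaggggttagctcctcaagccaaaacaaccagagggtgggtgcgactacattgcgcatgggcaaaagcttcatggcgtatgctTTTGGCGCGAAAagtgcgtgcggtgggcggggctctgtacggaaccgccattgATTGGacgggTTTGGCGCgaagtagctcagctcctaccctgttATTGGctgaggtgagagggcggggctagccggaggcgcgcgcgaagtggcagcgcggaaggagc
Mcm7, chr5:138171834-138172133, minus strand: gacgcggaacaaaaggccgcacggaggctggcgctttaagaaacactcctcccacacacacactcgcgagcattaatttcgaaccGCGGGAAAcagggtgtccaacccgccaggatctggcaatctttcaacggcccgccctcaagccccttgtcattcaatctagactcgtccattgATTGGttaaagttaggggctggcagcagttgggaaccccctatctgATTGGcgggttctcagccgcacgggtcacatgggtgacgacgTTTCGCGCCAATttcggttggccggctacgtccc
Pcna, chr2:132253131-132253430, minus strand: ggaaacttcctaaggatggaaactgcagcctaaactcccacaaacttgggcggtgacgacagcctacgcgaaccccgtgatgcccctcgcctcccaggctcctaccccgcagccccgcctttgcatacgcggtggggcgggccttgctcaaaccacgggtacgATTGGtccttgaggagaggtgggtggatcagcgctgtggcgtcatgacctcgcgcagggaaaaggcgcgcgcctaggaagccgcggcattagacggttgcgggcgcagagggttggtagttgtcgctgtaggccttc
Top2a, chr11:99024140-99024439, minus strand: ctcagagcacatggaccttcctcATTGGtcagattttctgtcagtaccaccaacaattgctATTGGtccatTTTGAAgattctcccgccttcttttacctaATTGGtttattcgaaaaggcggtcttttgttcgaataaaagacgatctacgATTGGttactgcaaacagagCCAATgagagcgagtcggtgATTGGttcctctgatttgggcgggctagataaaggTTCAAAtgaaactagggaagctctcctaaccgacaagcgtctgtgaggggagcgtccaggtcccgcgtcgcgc
Mcm6 and Mcm7 both held E2F letters, 3 and 2 matches. With TMM scaling Mcm6 was higher and Mcm7 lower in KO at 25 dpp. A link between these letters and the levels was not tested. Some matches overlap: 2 of the E2F matches of Mcm6 share bases, and the last E2F match of Mcm7 shares bases with a CCAAT match. RefSeq gives Mcm7 a second start nearby, whose window held CCAAT but none of the E2F letters. No match in the Pcna window for the E2F letters says only that those letters are absent from that window.

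The paralogues of the members differed among themselves. Mcm8, which forms a helicase with Mcm9 in homologous recombination, rose at 25 dpp (0.71, SE 0.191, adjusted p = 0.0125), with 40.5 and 47.4 CPM in KO and 23.9 and 29.6 CPM in WT. At 19 dpp Mcm8 fell (-1.19, SE 0.194, adjusted p = 0.00896), with 17.7 and 22.7 CPM in KO and 48.3 and 44.0 CPM in WT. Mcmdc2, an MCM-like gene needed for meiotic recombination, fell at 19 dpp (-2.47, SE 0.301, adjusted p = 0.00714), with 4.06 and 6.58 CPM in KO and 26.4 and 33.0 CPM in WT, and did not pass the test at 25 dpp, at 0.14 (adjusted p = 0.693). Mcm9 passed the test at neither age, with -0.22 at 25 dpp and 0.07 at 19 dpp. Top2b, the topoisomerase that non-dividing cells also use, rose at 25 dpp (1.02, SE 0.179, adjusted p = 0.00204), with 210.2 and 264 CPM in KO and 98.2 and 135 CPM in WT, whereas at 19 dpp it had a log2 fold change of -0.01. Top1, which relaxes DNA during transcription and replication, passed at neither age (0.24 at 25 dpp and 0.27 at 19 dpp), but was called at 25 dpp with total counts (0.70, adjusted p = 0.0115). With Sertoli marker scaling the rises at 25 dpp turned to -0.91 for Mcm8 and -0.59 for Top2b. The rise of Mcm8 was not called without the second KO library at 25 dpp (adjusted p = 0.0744), and the calls at 19 dpp were lost without the first KO library of that age.

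At 25 dpp, the other genes of the replication pathway had calls in both directions in each list, as did all genes tested, of which 26.1% were higher and 37.4% lower. Of the 10 origin licensing genes, 4 were higher and 2 lower in KO (median log2 fold change 0.21, against -0.12 for all genes). Mcmbp, which binds and stores MCM complexes, rose by 1.19 (adjusted p = 0.00128) and averaged 116 ± 13.9 CPM in KO and 50.7 ± 10.9 CPM in WT. Of the 14 helicase activation genes, 4 were higher and 5 lower (median 0.10). Donson, a factor in assembling the active helicase, fell by 1.58 (adjusted p = 4.66e-04), with 35.2 ± 2.13 CPM in KO and 105 ± 11.2 CPM in WT, and Topbp1, a scaffold of origin firing and of the checkpoint, had 0.32 (adjusted p = 0.154), and was called with total counts (0.78, adjusted p = 0.00947). Of the 12 polymerase and primase genes, 5 were higher and 4 lower (median 0.34). Pola1, the catalytic subunit of polymerase alpha, rose by 1.40 (adjusted p = 6.42e-04), with 20.1 ± 1.52 CPM in KO and 7.59 ± 0.717 CPM in WT, and Pole, the leading strand polymerase, rose by 0.95 (adjusted p = 0.0073).

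In the lagging strand and fork list, 8 of 24 were higher and 6 lower in KO at 25 dpp (median 0.06). Rnaseh2a, the catalytic subunit of the nuclease that removes ribonucleotides from DNA, averaged 37.5 ± 2.96 CPM in KO and 499 ± 127 CPM in WT, and fell by 3.73 (SE 0.232, adjusted p = 3.08e-04). Rpa1, the large subunit of the single-strand binding protein, averaged 89.4 ± 2.04 CPM in KO and 383 ± 54.1 CPM in WT, and fell by 2.10 (SE 0.18, adjusted p = 3.08e-04). In WT at 19 dpp Rnaseh2a averaged 42.3 ± 7.94 CPM and Rpa1 96.7 ± 16.9 CPM, so that both shared with Mcm7 a high level in WT at 25 dpp. Of the 10 nucleotide supply genes, 6 were higher and 3 lower (median 0.75). Rrm2b, the p53-inducible small subunit of ribonucleotide reductase, rose by 1.61 (adjusted p = 7.88e-04), while Rrm1, the large subunit, fell by 0.73 (adjusted p = 0.00199). With total counts Rrm1 was not called (-0.26, adjusted p = 0.149). Of the 25 genes of G1 to S control, 8 were higher and 6 lower (median 0.37). Cdkn1b, the inhibitor p27, rose by 1.36 (adjusted p = 3.90e-04), and Cdk2, the kinase of G1 to S, had -0.07 (adjusted p = 0.611). With total counts Cdk2 was called higher in KO (0.39, adjusted p = 0.0419).

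The mitosis list went against Mki67 at 25 dpp. Of its 33 genes, 20 were lower and 2 higher in KO (median -0.99). Plk1, a kinase of mitotic entry, fell by 2.87 (adjusted p = 3.28e-04), with 17.4 ± 1.29 CPM in KO and 127 ± 19.2 CPM in WT. Smc4, a condensin subunit, fell by 0.99 (adjusted p = 0.00261), with 432 ± 34.5 CPM in KO and 859 ± 48.0 CPM in WT. The 2 that rose, named after their values were seen, were Ccna2 (0.68, adjusted p = 0.0302), the cyclin of S and G2, and Cenpa (0.88, adjusted p = 0.0243), the histone variant of centromeres. Neither was called without either KO library or without the first WT library of that age. Ccna2 was also not called with DESeq2 size factors (0.58, adjusted p = 0.0566). Many genes of this list also serve the meiotic divisions. With Sertoli marker scaling no gene of any of these 7 lists was called higher in KO at 25 dpp, and the called genes were all lower.

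At 19 dpp edgeR called no gene of the 7 lists higher in KO. At an unadjusted p under 0.05 there were 2, Pola1 and Rbl2, named after their values were seen, and DESeq2's Wald test called 1 gene higher in the polymerase list and 1 in the G1 to S list. Of all genes tested 13.2% were lower. Of the mitosis list 28 of 33 were lower (median -1.08, against 0 for all genes), with Smc4 at -1.79 (adjusted p = 0.00714; 119 ± 20.9 CPM in KO and 413 ± 86.4 CPM in WT). Of the helicase activation list 11 of 14 were lower (median -1.05), among them Mtbp, a partner of the origin firing factor Ticrr, at -1.10 (adjusted p = 0.00814), and Topbp1 at -1.09 (adjusted p = 0.00944). Of the polymerase and primase list 6 of 12 were lower (median -0.57), with Pola2 at -0.69 (adjusted p = 0.0206), and Pole did not pass, at -0.68 (adjusted p = 0.066), but was called without a filter (0.0284), with the DESeq2 Wald test (0.00514) and with the replicate block (0.0413). Of the licensing list 4 of 10 were lower (median -0.62), with Orc5, a subunit of the origin recognition complex, at -0.80 (adjusted p = 0.00956), while Mcmbp had -0.07 (adjusted p = 0.857). Of the lagging strand and fork list 7 of 24 were lower (median -0.48), with the clamp loader subunit Rfc4 at -1.13 (adjusted p = 0.013). Rpa1 had -0.49 (adjusted p = 0.0813), and was called with total counts (0.0407), without a filter (0.0382) and with the DESeq2 Wald test (0.0147). Of the nucleotide supply list 3 of 10 were lower (median -0.32), with Dut, which removes dUTP, at -0.87 (adjusted p = 0.0177). Rrm1 was also lower, at -0.42 (adjusted p = 0.0491). Of the G1 to S list 8 of 25 were lower (median -0.33), with the pocket protein gene Rbl1 at -1.75 (adjusted p = 0.00758), while Cdk2 had 0.06 (adjusted p = 0.761). The members themselves had a median of -0.84. Without the first KO library at 19 dpp none of these calls was made. Leaving out any of the 8 libraries ended the call of Rrm1. Pola2 was not called without either WT library of that age, Dut without the second of them, and Orc5 without the second KO library.

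**Figure D4:**
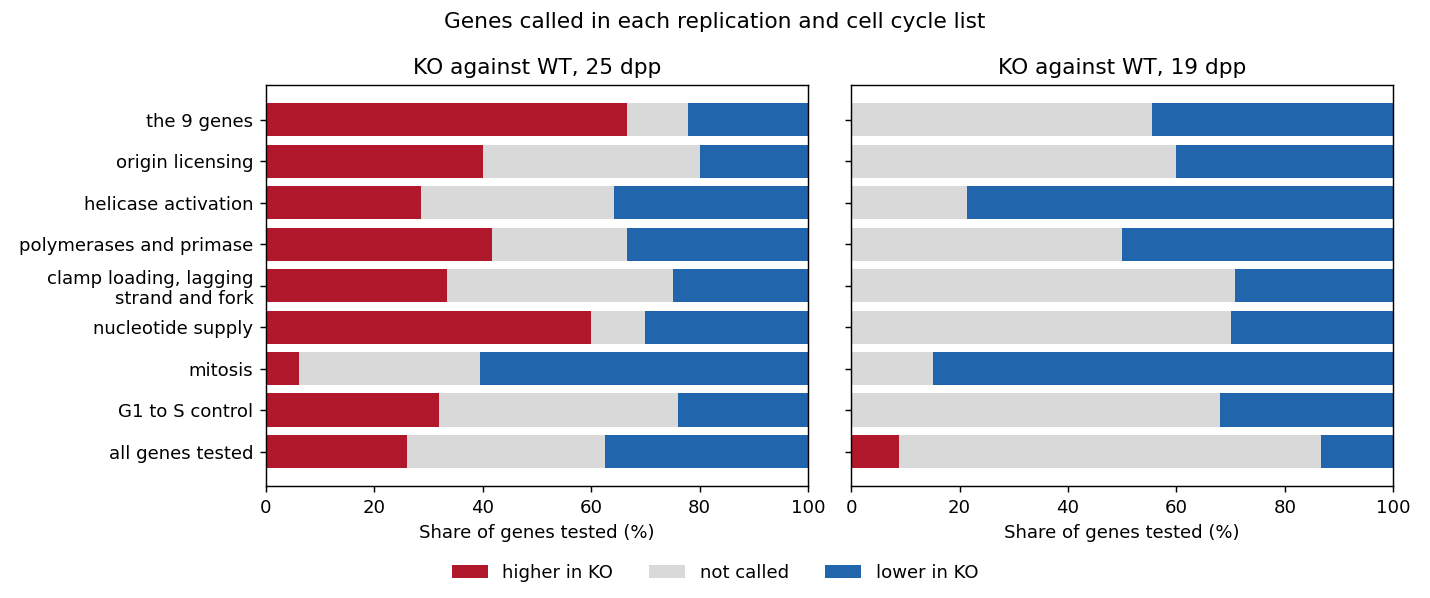
Share of the genes tested in each list (x axis, percent) that was called higher in KO (red), not called (grey) or called lower in KO (blue) with TMM scaling, at 25 dpp and at 19 dpp. The bottom bar gives all 23353 genes. At 25 dpp 20 of the 33 mitosis genes were lower in KO while 6 of the 9 members were higher, and with Sertoli marker scaling no list had a gene called higher.

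Between the ages, 10.2% of all genes tested were higher and 8.87% lower at 25 dpp in KO, and 34.9% higher and 25.4% lower in WT. In KO, the genes of helicase activation were higher at 25 than at 19 dpp in 9 of 14 cases and lower in none, with Dbf4, the activator of the Cdc7 kinase, at 1.41 (adjusted p = 0.00853) and Topbp1 at 1.13 (adjusted p = 0.00978). In the same comparison 23 of 33 mitosis genes were higher and none lower, with Smc4 at 1.86 (adjusted p = 0.00566). In WT, 17 of 33 mitosis genes were higher and 2 lower at 25 dpp (median 0.64), with Plk1 at 2.35 (adjusted p = 6.58e-04), whereas 6 of 10 nucleotide supply genes were lower and 3 higher (median -0.89). Rnaseh2a rose by 3.56 in WT (adjusted p = 4.14e-04) and Rpa1 by 1.98 (adjusted p = 4.16e-04). Cdkn2c, an inhibitor of the G1 cyclin kinases, rose by 2.22 in WT (adjusted p = 0.00136). By the interaction test the age effect was higher in KO than in WT for 7.68% of all genes tested and lower for 11.4%. It was higher for 4 of the 33 mitosis genes and lower for 1, Plk1 (adjusted p = 0.0166). Of the 14 helicase activation genes it was higher for 6, Topbp1 among them (adjusted p = 0.0125), and lower for none. Smc4 (0.80, adjusted p = 0.0665), Dbf4 (0.85, adjusted p = 0.0794) and Cdkn2c (-1.14, adjusted p = 0.0951) did not pass the interaction test. In KO, with Sertoli marker scaling, 1 mitosis gene was called higher at 25 dpp and no gene of the helicase activation list. Without the first KO library at 19 dpp the rises of Dbf4, Topbp1 and Smc4 in KO were not called, and without the second KO library at 25 dpp those of Dbf4 and Topbp1 were not.

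The genes most alike in profile were sought among 11990 genes by Pearson's r of log2 CPM over the 8 libraries, which share their depth and makeup, and r is given as a description. With the mean of Mcm2 to Mcm7 the 5 highest were Mcm10 (r = 0.98), which helps start the helicase, Ebf3 (0.98), a transcription factor, Cyc1 (0.98), a subunit of the respiratory chain, Timm50 (0.98), of the mitochondrial import channel, and Melk (0.98), a kinase of dividing cells. Mcm10 had 23.9 and 23.7 CPM in KO and 14.3 and 18.8 CPM in WT at 25 dpp, and 13.5 and 20.3 CPM in KO and 25.7 and 24.4 CPM in WT at 19 dpp. With the mean of Top2a and Mki67 the 5 highest were Tc2n, Tex12, Haus6, Meiob and Cdk12 (r = 0.99 for each). Tex12 encodes a part of the synaptonemal complex and Meiob a single-strand binding protein of meiotic recombination. Meiob had 51.4 and 70.9 CPM in KO and 37.8 and 47.6 CPM in WT at 25 dpp, and 5.45 and 14.2 CPM in KO and 54.6 and 54.9 CPM in WT at 19 dpp. Its KO libraries at 19 dpp were the lowest of the 8, as for Top2a and Mki67.

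Spermatogonial markers were set beside the members because spermatogonia and preleptotene spermatocytes are the germ cells that replicate. Of 9 markers of differentiating spermatogonia and preleptotene cells, 8 were higher and 1, Dmrtb1, lower in KO at 25 dpp, against 26.1% and 37.4% of all genes tested. Their sum was 657 and 711 CPM in KO and 1168 and 946 CPM in WT. Dmrtb1 alone had 39.9 and 37.6 CPM in KO and 926 and 636 CPM in WT, and the other 8 markers summed to 617 and 674 CPM in KO and 242 and 310 CPM in WT. Of 12 markers of undifferentiated spermatogonia, 7 were higher and 1 lower at 25 dpp, with sums of 310.2 and 298 CPM in KO and 176 and 207 CPM in WT. At 19 dpp, 2 of the 9 differentiating markers were lower and none higher, against 13.2% and 8.8% of all genes tested, with sums of 452 and 656 CPM in KO and 800.3 and 680.1 CPM in WT. Among the undifferentiated markers 2 of 12 were higher and 1 lower at that age. The part of these cell types in the members' levels was not tested.

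**Figure D5:**
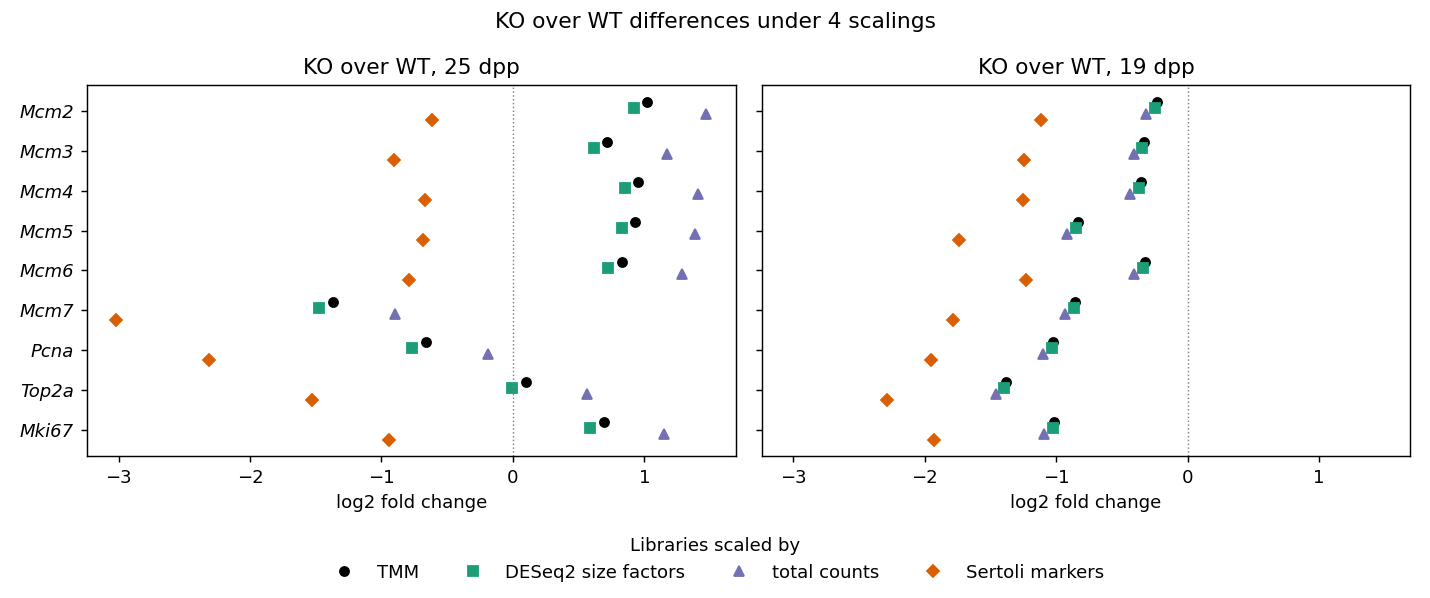
Log2 fold change of KO over WT (x axis) for each of the 9 genes with libraries scaled by TMM (circles), DESeq2 size factors (squares), total counts (triangles) or Sertoli markers (diamonds). At 25 dpp Sertoli marker scaling puts all 9 genes below 0 (Mcm2 at -0.62), and at 19 dpp all 9 genes lie below 0 under each of the 4 scalings.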

How the data were processed

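RNA of whole testes was sequenced from TruSeq stranded mRNA libraries, per the labels' protocols, with 2 libraries in each of 4 groups. The deposited values are raw counts per gene, 1 table per library. Per the submitters' processing notes, mm10, STAR 2.7.0a and featureCounts 1.5.1 were used. The strand setting, the handling of reads with several matches and the gene annotation are not given in the sources used here. The 1205 repeat families in the tables, 4.10% to 5.68% of counts, were left out of library sizes and tests.

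From these counts, libraries were scaled by TMM, genes filtered with filterByExpr by group, and 23353 genes fitted in edgeR 4.0.16 (R 4.3.3) by robust quasi-likelihood on the 4 group means, which left 4 residual degrees of freedom. Benjamini-Hochberg adjustment ran over all genes tested, at 0.05. Each SE was taken from the F statistic and the log2 fold change. There were 5 comparisons, the genotypes at each age, the ages within each genotype, and the interaction of both. The fit was first tested on simulated data. Counts of 1 read were worth at most 0.0419 CPM, so counting error is small beside the spread between libraries.

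Exon lengths and coordinates are from GENCODE M21 (GRCm38), matched by symbol, and are 1-based. Promoter windows are from RefSeq (GRCm38.p6).

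The members and all lists were chosen with earlier results of these data known. Genes named were the members and paralogues, and per list and comparison the called gene with the lowest p and the gene with the highest mean CPM, of which the text gives those of KO against WT at both ages and a few of the age comparisons. Genes alike in profile needed a mean of at least 8 CPM and used a prior count of 2.

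Alternatives were DESeq2 size factors, total counts or Sertoli markers as scaling, another filter (none, or 5 CPM in 2 libraries), DESeq2 1.42.0 with its Wald test, voom of limma 3.58.1, only the libraries compared, a replicate block, and leaving out each library in turn, where a lone library is assumed to vary like the other groups.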

Additional observations from a re-analysis of the deposited data

Results flagged for a closer look

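For 6 of the 9 genes the KO effect differed between the ages by the interaction test of edgeR with Benjamini-Hochberg adjustment. The KO over WT log2 fold change at 25 dpp minus that at 19 dpp was 1.77 for Mcm5 (adjusted p = 0.02), 1.71 for Mki67 (adjusted p = 0.00789), 1.48 for Top2a (adjusted p = 0.0392), 1.31 for Mcm4 (adjusted p = 0.0283), 1.15 for Mcm6 (adjusted p = 0.0256) and 1.05 for Mcm3 (adjusted p = 0.045). Each difference combines a KO effect at 25 dpp with one at 19 dpp. For Top2a only the effect at 19 dpp passed the test by itself. For Mcm3, Mcm4, Mcm5 and Mcm6 only the effect at 25 dpp did, and Mki67 passed at both ages. The share of all genes with a difference in this direction was 7.68%. None of the 6 was called with libraries scaled by Sertoli markers, and Mcm3 was not called with DESeq2 size factors (0.96, adjusted p = 0.05003).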

How the results depend on the processing

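Over the alternatives, 633 of the members' log2 fold changes kept their sign and their side of the threshold. With the sign kept, 79 lost a call and 20 gained one. Another 24 changed sign, and any call these lost or gained is not counted in the 79 and 20. Scaling by Sertoli markers moved the most. With it 9 members were called at 19 dpp and 6 at 25 dpp, all of them lower in KO. Between the ages 2 were called in WT and 0 in KO, and 0 were called for the difference between ages. In these last 2 comparisons DESeq2's Wald test called 5 and 7 members, while Sertoli scaling left 6060 and 6971 genes with an unadjusted p under 0.05. At 25 dpp it turned Mcm2 to -0.62, Mcm3 to -0.90, Mcm4 to -0.67, Mcm5 to -0.69, Mcm6 to -0.79, Top2a to -1.53 and Mki67 to -0.94, and likewise Mcm8 to -0.91, Mcmdc2 to -1.47, Top2b to -0.59, Top1 to -1.38, Mcmbp to -0.45, Topbp1 to -1.31, Pola1 to -0.25, Pole to -0.68, Rrm2b to -0.017, Ccna2 to -0.96, Cenpa to -0.74 and Cdkn1b to -0.28. At 19 dpp it turned Mcm9 to -0.84, Top1 to -0.67 and Cdk2 to -0.86. Between the ages in WT it turned Mcm3 to 0.16, Mcm5 to 0.14, Mcm6 to 0.18, Top2a to 0.96 and Mki67 to 0.51, and it turned the difference between ages of Pcna to -0.35. By construction it shifts all genes together, and the median of all genes was then -0.89 at 19 dpp, -1.77 at 25 dpp, 1.01 between the ages in WT, 0.25 in KO and -0.75 for the difference.

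Top2a became -0.007 at 25 dpp and 0.12 between the ages in WT with DESeq2 size factors and with its Wald test. With total counts, which move the median to 0.34 at 25 dpp and -0.51 between the ages in WT, the difference between ages of Mcm7 became 0.036, Mcm9 became 0.25 at 25 dpp and -0.008 at 19 dpp, Cdk2 0.39 and -0.019, and Ap4m1 0.022 at 25 dpp. Cdk2 at 25 dpp became 0.005 without a filter and 0.055 with only the libraries compared. The cause was not tested for these. Leaving out 1 library gave 0 to 5 members called at 19 dpp, 4 to 8 at 25 dpp, 4 to 8 between the ages in WT, 0 to 4 in KO and 1 to 7 for the difference. The log2 fold change then ran from -0.13 to 0.33 for Top2a at 25 dpp, -0.11 to 0.058 for Top2a between the ages in WT, -0.69 to 0.10 for Mcm2 at 19 dpp, -0.27 to 0.51 for Mcm2 and -0.023 to 0.54 for Mcm4 between the ages in KO, -0.16 to 0.039 for Cdk2 at 25 dpp, -0.093 to 0.21 for Mcm9, -0.20 to 0.082 for Mcmbp and -0.044 to 0.039 for Top2b at 19 dpp, and -0.045 to 0.41 for Mcmdc2 at 25 dpp.

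Over all genes, DESeq2's Wald test called 7830 at 19 dpp, 7318 between the ages in KO and 7884 for the difference, against 5145, 4451 and 4464 with edgeR. For the difference, limma-voom called 6585 and total counts 7515. Sertoli scaling called 9227 at 19 dpp, 467 in KO and 2195 for the difference. With the replicate block, 5, 8, 8, 4 and 6 members were called in the 5 comparisons, against 4, 8, 8, 4 and 6, the added call being Mcm5 at 19 dpp. Deviations from the group means correlated between -0.0877 and 0.361 over the pairs of groups. With 2 libraries a group this does not settle whether the replicate numbers pair the samples. With 2 libraries a group, an effect the size of the spread between libraries could not be told from it.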
